A study of Mus musculus with 8 samples.

Results

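The hemoglobin genes described here are the 7 mouse globin symbols Hba-x, Hba-a1 and Hba-a2 of the alpha type and Hbb-y, Hbb-bh1, Hbb-b1 and Hbb-b2 of the beta type, out of 23440 symbols in the E12 table and 24002 in the E17.5 table of hypothalamus RNA. They were picked by symbol and not by their values. All 7 had a row of their own at E17.5, and 3 of them, Hba-x, Hbb-bh1 and Hbb-y, had one in all 8 libraries. In the E12 table Hba-a1 and Hba-a2 shared both of their rows, Hbb-b1 shared its row with Hbb-bs, and Hbb-b2 had no row. The adult copies were therefore summed within a class, and 5 units were compared across stages: Hba-x, Hbb-bh1, Hbb-y, adult alpha-globin (Hba-a1 with Hba-a2) and adult beta-globin (the rows naming Hbb-b1 or Hbb-b2). Values are FPKM, fragment numbers scaled to transcript length and to the fragments mapped in the library, so levels of different genes can be set side by side within a table.

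The study sequenced the developing hypothalamus of Foxd1-null and wild-type mouse embryos to ask which neurons need this forkhead transcription factor. There was 1 Foxd1-mutant and 1 wild-type library at E12.0, 1 of each at E12.5, and 2 of each at E17.5. Each library came from pooled RNA, drawn in all from 8 Foxd1-null and 10 control embryos, and whether the pools were separate litters is not given, so p-values measure the spread between these libraries. The labels' account of embryo collection covers E12.5 and E17.5 alone, describes the controls in words that could be read as either genotype, and names no other allele, strain or treatment. Foxd1 itself was at 2.77 FPKM in the mutant and 24.95 in the wild-type library of E12.0, and at 2.497 and 30.3 FPKM in those of E12.5. In E17.5 tissue it was at 0.396 and 0.230 FPKM in mutant libraries, against 3.895 and 1.96 FPKM in wild-type libraries. The hypothalamic regulators Nkx2-1, Rax, Otp, Sim1 and Six3 were all detected, the lowest value being 1.71 FPKM, for Rax in a mutant library at E17.5.

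Hemoglobin is a tetramer of alpha-type and beta-type globin chains around heme, and it is made chiefly in red blood cells. In the mouse the first red cells, called primitive, leave the yolk sac and carry the embryonic chains zeta (Hba-x), epsilon-y (Hbb-y) and beta-h1 (Hbb-bh1) as well as adult alpha chains, while the later definitive cells made in the fetal liver carry adult alpha and beta chains. Dissected brain holds blood in its vessels, and some neurons have also been described to hold adult globin RNA; the cell of origin was not tested here. In bulk RNA fewer red cells and less globin RNA per cell cannot be told apart, but the share of embryonic within all alpha-type or all beta-type FPKM of a library needs no scale shared between libraries.

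Promoters of an embryonic and an adult gene of each type are shown because the switch is a change between these neighbouring genes. They are the 150 bases before the RefSeq transcription start on build GRCm38.p6, in lower case, with motif letters in capitals. The letters searched on both strands were CACCC, the box read by KLF1; CCAAT, the box read by NF-Y; GATAA, read by GATA1; TGACCA, read by the embryonic globin repressor BCL11A; and TATAA or ATAAA, forms of the TATA box. Positions count back from the start and give the first base of the motif.
Hba-x (embryonic alpha, chr11:32276450-32276599, plus strand): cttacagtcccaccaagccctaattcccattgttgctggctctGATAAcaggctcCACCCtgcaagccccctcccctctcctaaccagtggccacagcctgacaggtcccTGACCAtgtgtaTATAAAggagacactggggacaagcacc
Hba-a1 (adult alpha, chr11:32283522-32283671, plus strand): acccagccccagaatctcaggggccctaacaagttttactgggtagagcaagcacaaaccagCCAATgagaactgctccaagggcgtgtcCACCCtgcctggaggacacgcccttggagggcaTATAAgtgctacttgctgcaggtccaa
Hbb-y (embryonic beta, chr7:103853208-103853357, minus strand): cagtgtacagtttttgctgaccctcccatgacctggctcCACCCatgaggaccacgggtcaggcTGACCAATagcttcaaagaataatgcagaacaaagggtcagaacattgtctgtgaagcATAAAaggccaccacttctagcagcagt
Hbb-bs (adult beta, chr7:103827929-103828078, minus strand): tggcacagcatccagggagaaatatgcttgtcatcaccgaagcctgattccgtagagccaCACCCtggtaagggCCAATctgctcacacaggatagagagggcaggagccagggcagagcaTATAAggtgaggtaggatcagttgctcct

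CACCC stood in all 4 windows, at -95 in Hba-x, -60 in Hba-a1, -111 in Hbb-y and -90 in Hbb-bs, and was present in 37.4% of 32851 mouse promoter windows of this length. CCAAT stood in Hba-a1 at -88, Hbb-y at -83 and Hbb-bs at -76, against 24.5% of all windows. TGACCA stood in both embryonic promoters, at -40 in Hba-x and at -86 in Hbb-y, where it overlaps CCAAT, and was present in 6.99% of all windows. GATAA was found at -107 in Hba-x, against 13.3% of all windows. A TATA box form lay at -28 in Hba-x and Hbb-y, -27 in Hba-a1 and -29 in Hbb-bs, TATAA being in 14.2% and ATAAA in 24.1% of all windows. The windows of Hba-a1 and Hba-a2 were identical at 147 of 147 positions once shifted by 3 bases. The table used held promoters for 4 of the 7 genes. Hbb-bs stands here for the adult beta copies, and these matches describe letters, not occupied sites.

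The beta-type globins were almost wholly adult at E17.5 and almost wholly embryonic at E12, in embryos of both genotypes. The embryonic share of beta-globin FPKM, Hbb-y with Hbb-bh1, was 97.2% in the mutant and 96.4% in the wild-type library at E12.0, then 93.3% and 91.7% at E12.5. At E17.5 it was 0.0947% and 0.166% in mutant libraries, against 0.203% and 0.102% in wild-type libraries. The 4 libraries of E17.5 averaged 0.141% ± 0.0519 and the 4 of E12 averaged 94.7% ± 2.58 (SD, n = 4 each), a difference of -94.5 percentage points with no overlap (exact permutation test, two-sided, p = 0.0286, the smallest that 70 arrangements can give). The difference was -95.1 points among mutant and -93.9 points among wild-type libraries. Stage coincides with the table and the sequencing set, so these cannot be told apart. Adding the other beta-type rows listed (Hbb-bs at E17.5, Hbb-bt at E12) left the shares at 91.2% to 95.6% at E12 and 0.0909% to 0.191% at E17.5.

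The alpha-type globins were almost wholly adult at E17.5 and mixed at E12. Hba-x made up 55.0% of alpha-globin FPKM in the mutant and 55.2% in the wild-type library at E12.0. At E12.5 its share was 34.6% in the mutant and 28.2% in the wild-type library. At E17.5 it was 0.140% and 0.279% in mutant libraries, against 0.255% and 0.101% in wild-type libraries. The mean was 0.194% ± 0.0866 at E17.5 and 43.3% ± 13.9 at E12 (SD, n = 4 each), a difference of -43.1 percentage points (exact permutation test, two-sided, p = 0.0286, again the smallest possible). The difference was -44.6 points among mutant and -41.6 points among wild-type libraries.

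**Figure D1:**
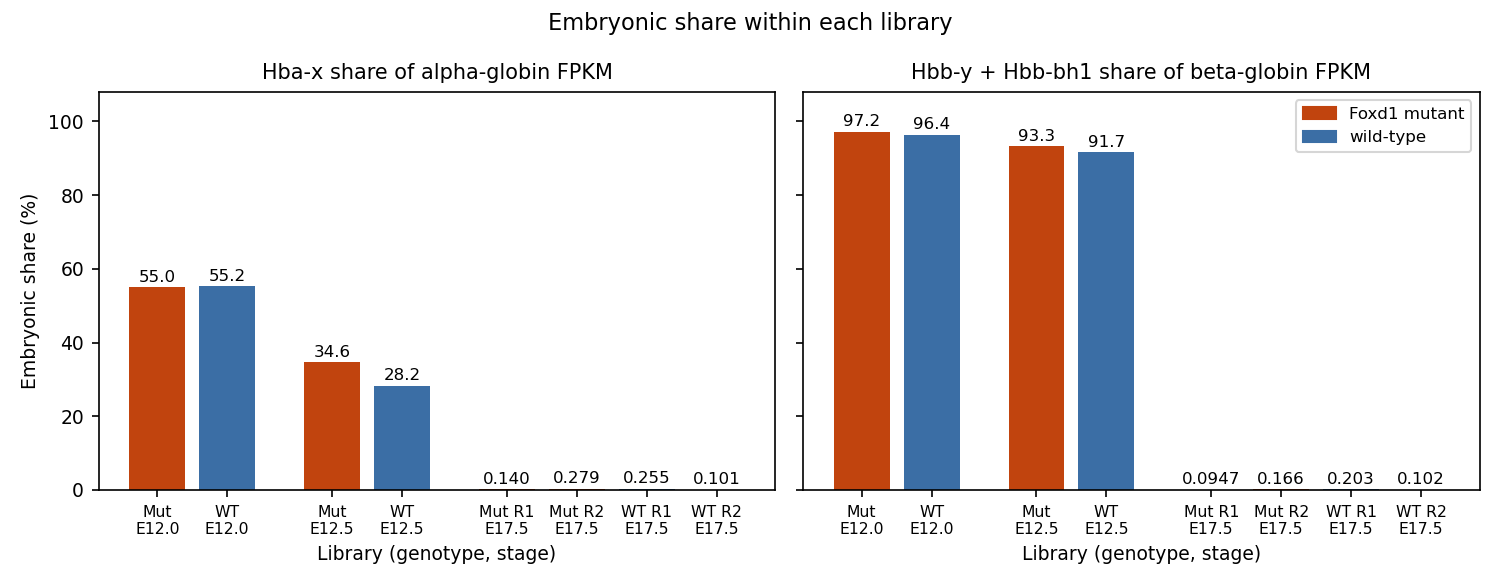
Embryonic share (%, vertical axis from 0) of alpha-globin FPKM (left) and beta-globin FPKM (right) in each of the 8 libraries, one bar per library, mutant in orange and wild-type in blue. The beta share stays between 91.7% and 97.2% at both early stages while the alpha share falls between 28.2% and 55.2%, and every E17.5 bar is below 0.3%, too short to see.

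At E12 the embryonic share differed between the beta and alpha types of the same library. At E12.0 the embryonic share was 42.1 points higher for beta than for alpha in the mutant library and 41.2 points higher in the wild-type library. At E12.5 the gap was 58.7 points in the mutant and 63.5 points in the wild-type library. At E17.5 the gap was between -0.113 and 0.0003 points. Adult chains exceeded embryonic ones there by 357-fold to 985-fold for alpha and by 493-fold to 1055-fold for beta, with mutant and wild-type libraries overlapping in both.

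Hbb-y, the epsilon-y chain, was the most abundant globin transcript in every E12 library. It was at 1424 FPKM in the mutant and 1350 in the wild-type library of E12.0, and at 1455 and 1656 FPKM in those of E12.5. At E17.5, in the table made separately, Hbb-y was listed at 3.11 and 4.78 FPKM in mutant libraries and at 7.31 and 2.75 FPKM in wild-type libraries, and the wild-type values enclosed the mutant ones. These levels stand for about 59 and 67 fragments in mutant and 117 and 55 in wild-type libraries, from the depth estimated for each.

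Hbb-bh1, the beta-h1 chain and the other embryonic beta gene, was far lower than Hbb-y and, of the 5 units, had the lowest E12.5 level relative to E12.0. It was at 193 FPKM in the mutant and 163 in the wild-type library at E12.0, and at 60.7 and 51.3 FPKM at E12.5. It made up 11.9% of embryonic beta FPKM in the mutant and 10.7% in the wild-type library at E12.0, then 4.003% and 3.01% at E12.5. At E17.5 it was at 0.167 and 0.525 FPKM in mutant libraries, against 0.131 and 0.156 FPKM in wild-type libraries. The groups do not overlap, as was so for 43.1% of all genes tested at E17.5, and these values rest on about 3 and 7 fragments in mutant libraries and 2 and 3 in wild-type libraries. Exact 95% Poisson intervals, which cover counting error only, ran from 0.619 to 8.77 and from 2.81 to 14.4 fragments in mutant libraries. In wild-type libraries they ran from 0.242 to 7.22 and from 0.619 to 8.77 fragments. The intervals overlap, but they are not scaled to depth and their overlap is not a test of a genotype difference. In the limma fit without the filter on low values, the log2 difference was 0.22 (limma adjusted p = 0.772).

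Hba-x, the zeta chain, was the one embryonic alpha gene. It was at 470 FPKM in the mutant and 626 in the wild-type library at E12.0, and at 280 and 257 FPKM at E12.5, so the order of the genotypes was not the same at both stages. At E17.5 it was at 2.17 and 2.84 FPKM in mutant libraries, about 56 and 54 fragments, against 3.48 and 1.12 FPKM in wild-type libraries, about 76 and 31 fragments.

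The adult alpha genes were already a major part of the E12 globins. Hba-a1 and Hba-a2 together were at 384 FPKM in the mutant and 508 in the wild-type library at E12.0, and at 528 and 654 FPKM at E12.5. At E17.5 they were at 1548 and 1014 FPKM in mutant libraries, against 1361 and 1100 FPKM in wild-type libraries. Hba-a1 alone was at 1286 and 847 FPKM in mutant libraries, against 1145 and 972 FPKM in wild-type libraries. Hba-a2 was at 261 and 167 FPKM in mutant libraries, against 216 and 128 FPKM in wild-type libraries. Hba-a1 thus took 83.1% to 88.3% of adult alpha FPKM. These copies are nearly identical, so how the authors' counting divided fragments between them is uncertain, and the sum is the firmer value.

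Adult beta-globin was the scarcest unit at E12.0 and the most abundant at E17.5. Its row at E12, which names Hbb-b1 and Hbb-bs, was at 46.9 FPKM in the mutant and 56.4 in the wild-type library of E12.0, and at 109 and 155 FPKM in those of E12.5. At E17.5 Hbb-b1 and Hbb-b2 together were at 3459 and 3191 FPKM in mutant libraries, against 3667 and 2856 FPKM in wild-type libraries. Hbb-b1 was at 3041 and 2931 FPKM in mutant libraries, against 3177 and 2511 FPKM in wild-type libraries. Hbb-b2 was at 418 and 260 FPKM in mutant libraries, against 490 and 345 FPKM in wild-type libraries. Hbb-b1 took 86.6% to 91.8% of the sum, with the same uncertainty between near-identical copies.

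**Figure D2:**
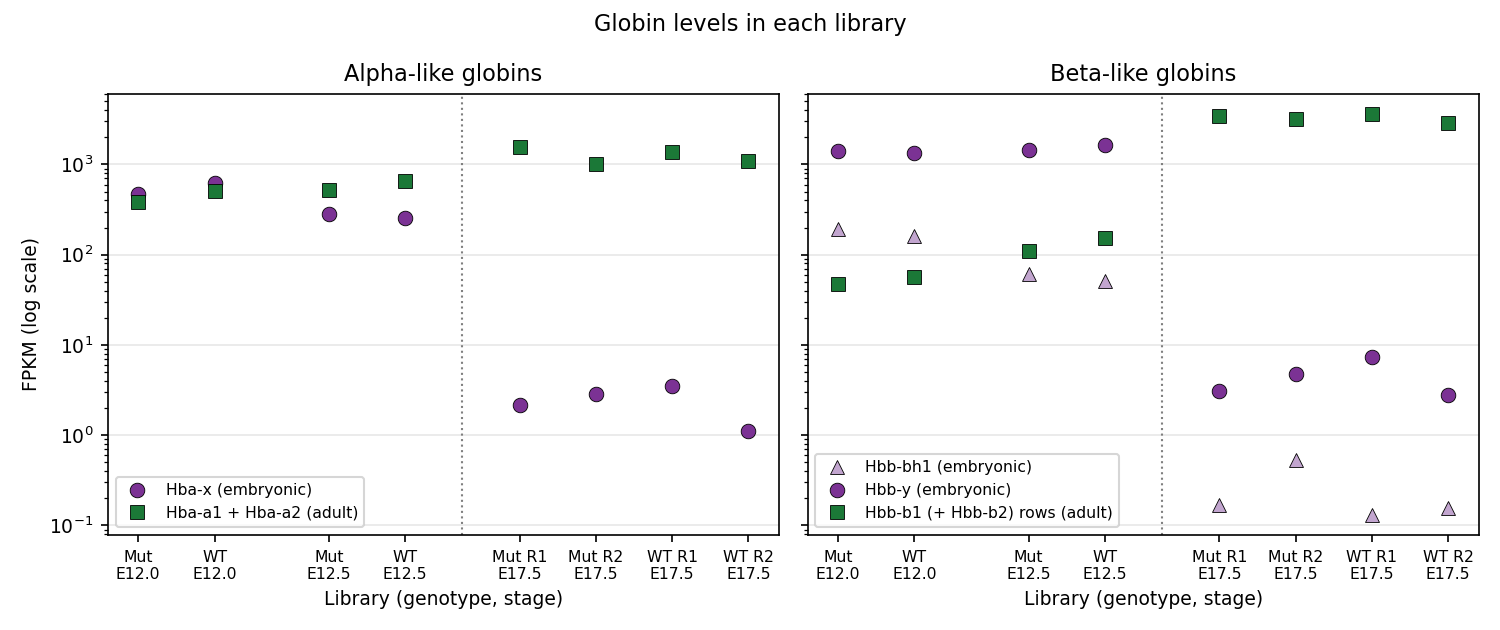
FPKM (log scale) of alpha-type (left) and beta-type (right) globins in each library, 1 point per library and gene or summed class, embryonic in purple and adult in green; the dotted line separates the E12 table from the E17.5 table, whose levels share no scale. Within every E17.5 library the adult points lie at 1014 FPKM or above and the embryonic ones at 7.31 or below, while in E12 libraries Hbb-y lies above all others.

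The ratio of the embryonic beta genes to each other also differed between the early stages. Hbb-y was 23.98 times Hbb-bh1 at E12.5 and 7.38 times at E12.0 in mutant libraries, and 32.3 times and 8.31 times in wild-type libraries. At E17.5 the ratio was 18.6 and 9.10 in mutant libraries, against 55.9 and 17.6 in wild-type libraries, with the few Hbb-bh1 fragments given above. The ratio of Hba-x to Hbb-y was 0.330 in the mutant and 0.464 in the wild-type library at E12.0. In the E12.5 libraries it was 0.192 in the mutant and 0.155 in the wild-type. At E17.5 it was 0.696 and 0.594 in mutant libraries, against 0.476 and 0.406 in wild-type libraries, on the fragment numbers given above. Mutant and wild-type libraries of E17.5 did not overlap in this ratio, as was so for the FPKM of 43.1% of single genes tested there. No background over other gene pairs was computed, and at E12.0 the mutant library had the lower ratio.

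Between E12.0 and E12.5, within a single table, the embryonic to adult ratio was lower at E12.5 in embryos of both genotypes. For alpha it was 0.530 at E12.5 and 1.22 at E12.0 in mutant libraries, and 0.394 and 1.23 in wild-type libraries, 2.31-fold and 3.14-fold lower. For beta it was 13.96 at E12.5 and 34.5 at E12.0 in mutant libraries, and 11.04 and 26.8 in wild-type libraries, 2.47-fold and 2.43-fold lower. With the adult copy Hbb-bt, given in full with the single genes, added to the denominator, the beta ratio was 13.2 at E12.5 and 21.7 at E12.0 in mutant libraries, and 10.4 and 16.9 in wild-type libraries, 1.64-fold and 1.62-fold lower. The embryonic share differed between E12.5 and E12.0 by -20.4 points in mutant and -27.0 points in wild-type libraries for alpha, and by -3.87 and -4.71 points for beta. With 1 library per genotype and stage, these values have no replicate check.

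The genes took different parts in this. At E12.5 Hbb-bh1 was at 0.314 times its E12.0 level in mutant and 0.316 times in wild-type libraries, while Hba-x was at 0.596 and 0.411 times. Adult beta-globin was at 2.32 times its E12.0 level in mutant and 2.74 times in wild-type libraries. Adult alpha-globin was at 1.38 and 1.29 times, and Hbb-y at 1.02 and 1.23 times. In the fit across all genes (limma on log2 of FPKM + 1, with genotype as a block), the log2 differences between E12.5 and E12.0 were -1.65 (SE 0.130) for Hbb-bh1, -1.01 (SE 0.216) for Hba-x and 1.32 (SE 0.138) for adult beta-globin, each with a limma adjusted p of 0.0536. They were 0.41 (SE 0.198, limma adjusted p = 0.157) for adult alpha-globin and 0.16 (SE 0.300, limma adjusted p = 0.682) for Hbb-y. None of the 5 units passed the threshold of 0.05, against 5 of all 11952 genes tested (0.0418%). At an unadjusted p under 0.05, 3 of 5 passed, against 48.1% of all genes. The adjusted p of 0.0536 was shared by other genes of this fit, such as Cldn5, Stmn2 and Tmcc2, so it is not particular to globins.

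The count of units past the adjusted threshold depended on the setting. Hbb-bh1, Hba-x and adult beta-globin all passed with a pseudocount of 0.1, where 21.4% of all genes did, and with small RNA genes left out, where 34.7% did. The median log2 difference of all genes was 0.37, and 76.8% of them were higher at E12.5 in both genotypes, against 3.95% lower in both. Scaled to FPKM outside globins and small RNA genes, the log2 difference was -2.06 for Hbb-bh1, -1.43 for Hba-x and 0.90 for adult beta-globin, while those of adult alpha-globin and Hbb-y came to -0.0072 and -0.26. A mean log2 difference of -1 or below was found in 0.218% of all genes, among them Hbb-bh1 and Hba-x, and one of 1 or above in 2.29%, among them adult beta-globin. Another adult beta copy, Hbb-bt, which is no member, went the other way: it was at 6.15 FPKM at E12.5 and 27.7 at E12.0 in mutant libraries, and at 9.79 and 33.35 FPKM in wild-type libraries. Its fitted log2 difference was -1.84 (SE 0.144, limma adjusted p = 0.0536), so it too was among the genes at -1 or below. With Hbb-bt added, adult beta-globin was at 1.54 times its E12.0 level in mutant and 1.83 times in wild-type libraries. Scaled to FPKM outside globins and small RNA genes, that sum was at 1.19 times in mutant and 1.32 times in wild-type libraries. How fragments were divided between the adult beta rows of E12 was not tested.

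**Figure D3:**
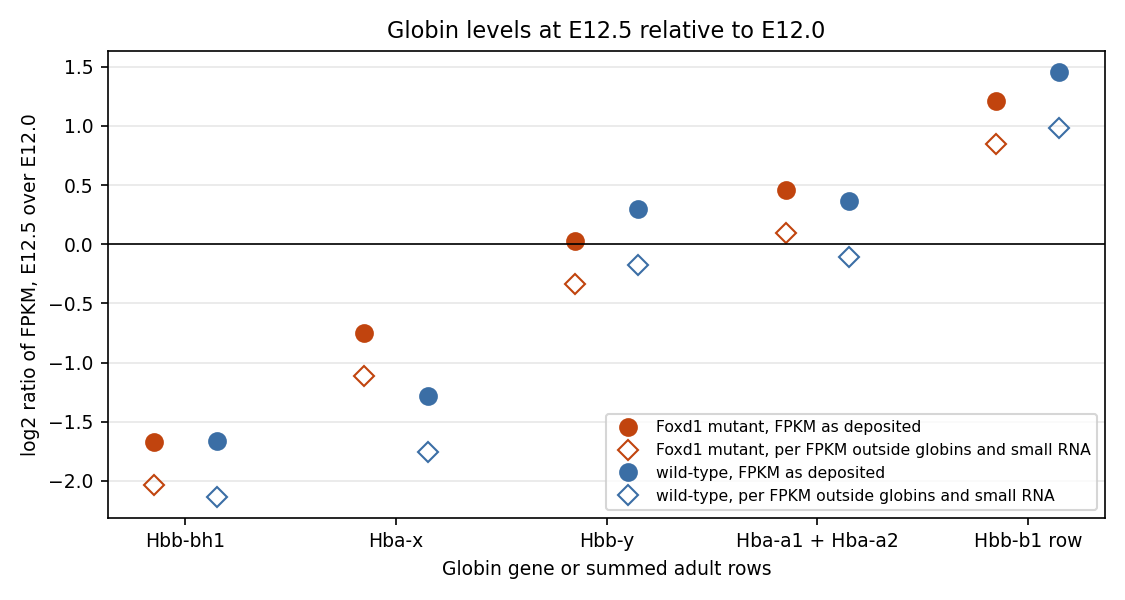
Log2 ratio of FPKM, E12.5 over E12.0 (vertical axis), for 3 embryonic genes and the summed adult rows, mutant in orange and wild-type in blue; circles use FPKM as deposited and diamonds FPKM scaled to the total outside globins and small RNA. Hbb-bh1 and Hba-x lie below 0 and the Hbb-b1 row above 0 on both scales and in both genotypes, whereas Hbb-y in both genotypes and the adult alpha rows in wild-type change side with the scale; the adult alpha rows of the mutant lie above 0 on both.

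Loss of Foxd1 went with no globin call in these libraries. The genotype difference in the embryonic share was 0.776 points at E12.0, 1.62 points at E12.5 and -0.0219 points at E17.5 for beta, where the mutant mean was 0.130% and the wild-type mean 0.152%. For alpha it was -0.201, 6.41 and 0.0311 points, with means of 0.209% in mutant and 0.178% in wild-type libraries at E17.5. Averaged over the 4 libraries of each genotype, the mutant share was 0.589 points higher for beta (exact permutation test within stage, two-sided, p = 0.417) and 1.57 points higher for alpha (p = 0.667 by the same exact test), where 24 arrangements allow no p below 0.0833. Without either E12.5 library the alpha difference was -0.0463 points.

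At E17.5, 6 of the 7 genes passed the filter of a mean of 1 FPKM and Hbb-bh1 did not. None of the 6 passed the adjusted threshold, against 1 of all 13235 genes (0.00756%), and none had an unadjusted p under 0.05, against 5.7% of all genes. Hba-a1 averaged 1067 ± 311 FPKM in mutant and 1059 ± 122 in wild-type libraries (SD, n = 2 each), a log2 difference of -0.016 (SE 0.202, limma adjusted p = 0.982). Hbb-b1 averaged 2986 ± 77.9 FPKM in mutant and 2844 ± 471 in wild-type libraries (SD, n = 2 each), a log2 difference of 0.080 (SE 0.126, limma adjusted p = 0.834). The other 4 were at 0.33 (SE 0.298) for Hba-a2, 0.18 (SE 0.344) for Hba-x, -0.32 (SE 0.258) for Hbb-b2 and -0.20 (SE 0.379) for Hbb-y, with limma adjusted p between 0.713 and 0.863. In each of the 6 the mutant and wild-type values overlapped, whereas in 43.1% of all genes they did not.

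At E12 none of the 5 units passed the adjusted threshold, against 4 of all 11952 genes (0.0335%). Adult beta-globin was lower in the mutant at both early stages, by log2 differences of -0.26 for the E12.0 pair and -0.51 for the E12.5 pair. Of the 5 it alone had an unadjusted limma p under 0.05, against 1.41% of all genes. Its fitted log2 difference was -0.38 (SE 0.138, limma adjusted p = 0.976). It kept that unadjusted level in the 6 alternatives that kept all E12 libraries and the stage block, and lost it without the stage block. With 1 E12 library left out, its log2 difference was between -0.51 and -0.26. Hbb-bt, the adult beta copy that is no member, was also lower in the mutant at both (fitted log2 difference -0.43, SE 0.144, limma adjusted p = 0.976). Adult alpha-globin was also lower at both, by -0.40 and -0.31 (fitted log2 difference -0.35, SE 0.198, limma adjusted p = 0.976). Such an order at both stages was found in 21.8% of all genes. Hbb-bh1 was higher in the mutant at both, by 0.25 and 0.24, as were 25.9% of all genes (fitted log2 difference 0.24, SE 0.130, limma adjusted p = 0.976). Hba-x and Hbb-y were on opposite sides at the 2 early stages.

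Over all stages none of the 5 units passed, nor did any of 12521 genes (0%). At an unadjusted limma p under 0.05, 1 of 5 did, against 5.55% of all genes: Hbb-bh1, with a log2 difference of 0.23 (SE 0.0855, limma adjusted p = 0.749). It lost that unadjusted level in 9 of 14 alternatives, over which the log2 difference ran from 0.16 to 0.50. None of the 5 passed when the genotype difference at E17.5 was set against that at E12, against 4 of 12521 genes (0.0319%), and none had an unadjusted p under 0.05 there, against 3.95%. The value closest to the threshold was that of adult beta-globin, at 0.42 (SE 0.201, limma adjusted p = 0.749). It reached an unadjusted p under 0.05 in 3 of 14 alternatives, over which the log2 difference ran from 0.24 to 0.60. A p above the threshold does not show that globin levels were equal in mutant and wild-type embryos.

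**Figure D4:**
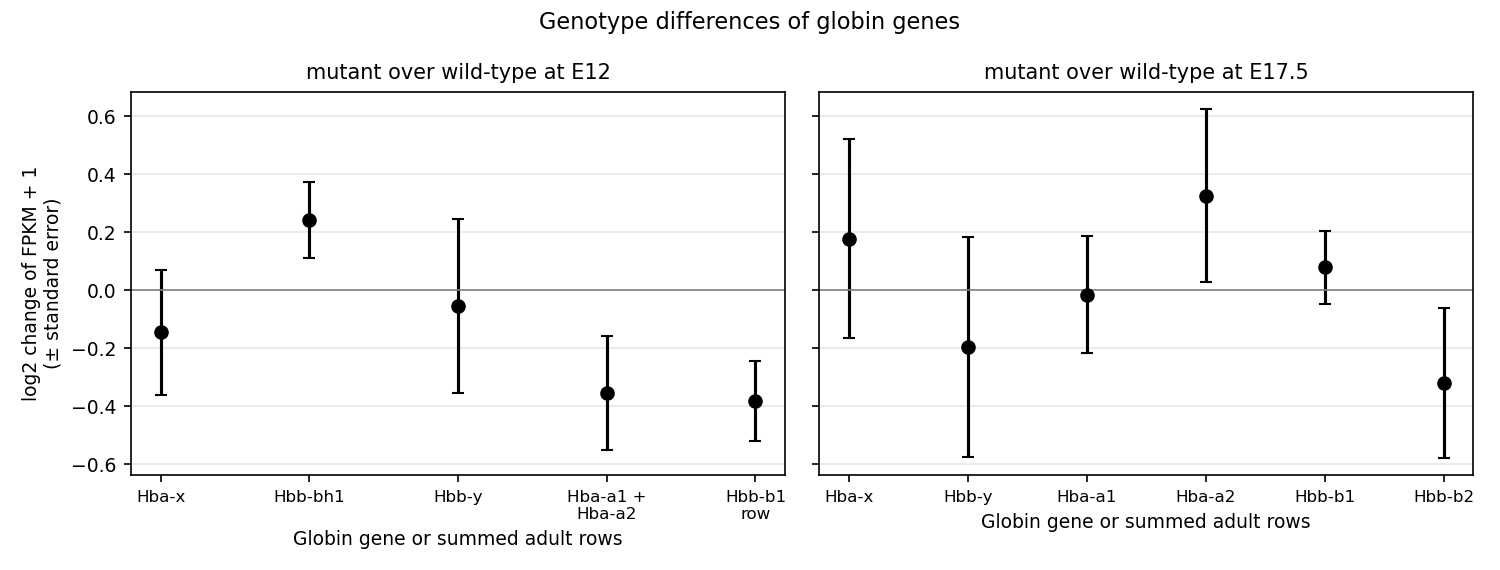
Log2 difference of FPKM + 1, mutant over wild-type, with its standard error, from the limma fits at E12 (left, 4 libraries with stage as a block) and E17.5 (right, 4 libraries). At E12 adult beta lies lowest at -0.38 and Hbb-bh1 highest at 0.24; at E17.5 the points run from -0.32 for Hbb-b2 to 0.33 for Hba-a2.

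The amount of globin RNA differed less between libraries of a table than the make-up did between stages. Globins summed to 2518 FPKM in the mutant and 2703 in the wild-type library at E12.0, and to 2433 and 2773 FPKM at E12.5. At E17.5 they summed to 5012 and 4213 FPKM in mutant libraries, against 5039 and 3961 FPKM in wild-type libraries. Within each genotype, the first library of E17.5 was higher than the second. Globins took 0.481% to 0.653% of all FPKM at E12 and 0.798% to 1.01% at E17.5. Alpha-type over beta-type FPKM was 0.513 in the mutant and 0.723 in the wild-type library at E12.0. In the E12.5 libraries it was 0.497 in the mutant and 0.489 in the wild-type. It was 0.448 and 0.318 in mutant libraries at E17.5, against 0.371 and 0.385 in wild-type libraries.

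Other genes of red cells did not share one pattern over the stages. Alas2, the erythroid enzyme that starts heme synthesis, was at 6.21 FPKM in the mutant and 6.08 in the wild-type library at E12.0, and at 7.42 and 6.36 FPKM at E12.5. In E17.5 libraries it was at 37.2 and 37.6 FPKM in mutant libraries, against 42.5 and 30.1 FPKM in wild-type libraries. Globin FPKM was 328 to 444 times that of Alas2 at E12 and 112 to 135 times at E17.5, a ratio within a library that needs no shared scale. Slc4a1, the anion exchanger band 3, was at 4.07 to 7.44 FPKM at E12 and 1.82 to 2.62 FPKM at E17.5.

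Slc25a37, the mitochondrial iron importer mitoferrin, was at 2.65 FPKM at E12.5 and 4.13 at E12.0 in mutant libraries, and at 2.27 and 6.05 FPKM in wild-type libraries (log2 -0.80, SE 0.207, limma adjusted p = 0.0551). For Slc4a1 the log2 difference was -0.52 (SE 0.174, limma adjusted p = 0.0776). Hemgn, a nuclear protein of red cell precursors, was at 0.0938 FPKM at E12.5 and 1.38 at E12.0 in mutant libraries, and at 0.111 and 2.28 FPKM in wild-type libraries. All of these were lower at E12.5 in libraries of both genotypes. In the opposite direction, Nt5c3, a nucleotidase, had a log2 difference of 0.82 and Uros, an enzyme of heme synthesis, one of 0.73. Both had the limma adjusted p of 0.0536 that other genes of the fit shared.

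**Figure D5:**
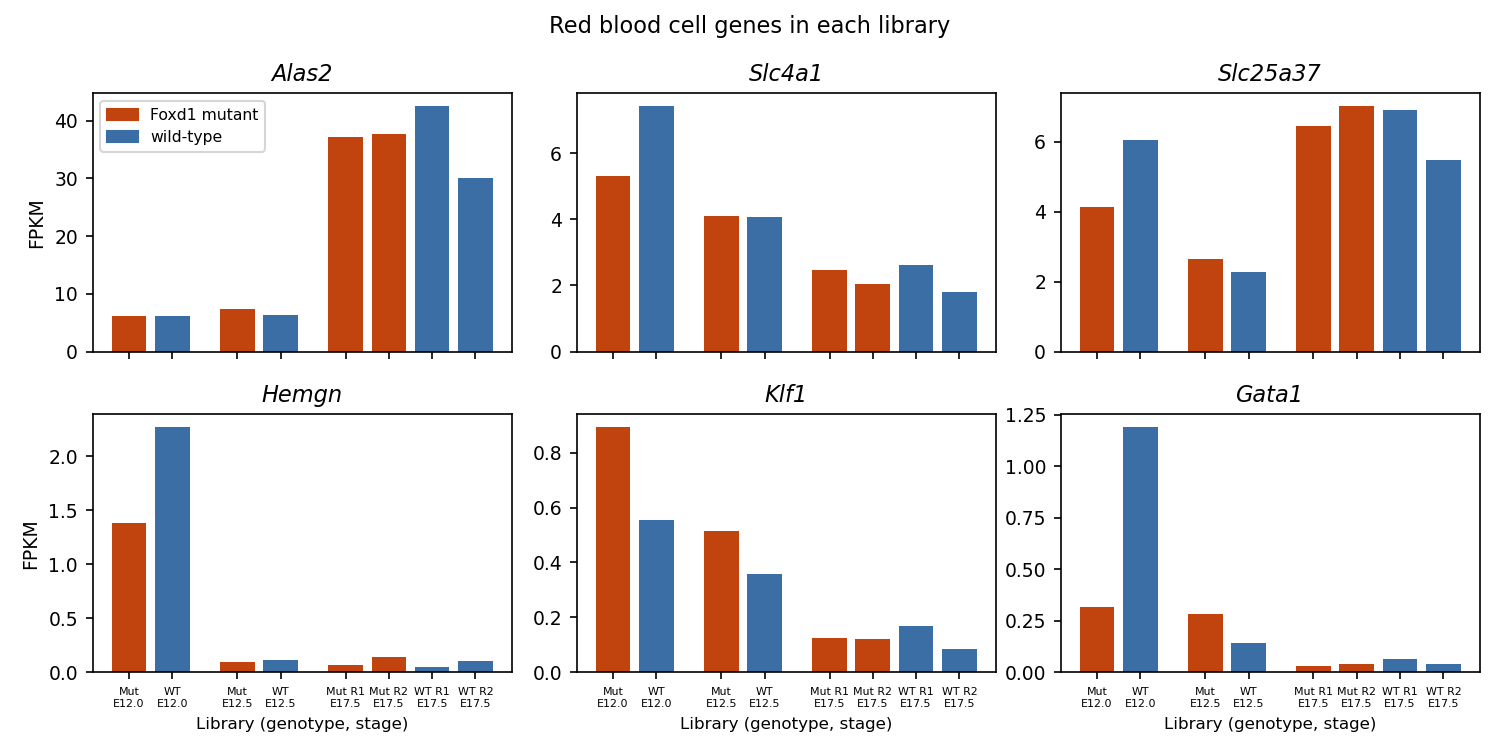
FPKM (linear axes from 0, a scale for each gene) of 6 red cell genes in each library, mutant in orange and wild-type in blue. Alas2 is above 30 FPKM in every E17.5 library and below 8 at E12, Slc25a37 and Hemgn are lower at E12.5 than at E12.0 in both genotypes, and Klf1 and Gata1 are below 0.2 FPKM at E17.5; levels of E12 and E17.5 share no scale.

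The regulators of erythroid cells and of globin switching had widely different levels. Klf1, the factor that activates adult beta-globin, was at 0.895 FPKM in the mutant and 0.556 in the wild-type library at E12.0, at 0.513 and 0.360 FPKM at E12.5, and at 0.0845 to 0.169 FPKM at E17.5. Gata1, a master regulator of red cells, was at 0.319 and 1.19 FPKM at E12.0, at 0.282 and 0.144 FPKM at E12.5, and at 0.0283 to 0.0665 FPKM at E17.5. Bcl11a, which represses embryonic globin genes in red cells and is also expressed by neurons, was at 15.8 to 31.9 FPKM at E12 and 16.5 to 23.3 FPKM at E17.5. Lin28b, an RNA-binding protein of fetal programs, was at 6.35 to 9.12 FPKM at E12 and 3.36 to 3.94 FPKM at E17.5.

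No gene of these lists passed the adjusted limma threshold in any comparison. For the genotype difference at E17.5, 8 of 8 heme synthesis genes were tested, 2 higher and 6 lower in the mutant, with a median log2 difference of -0.065. Of the red cell membrane genes, 4 of 7 tested were higher, with a median of 0.024, and of other red cell genes 5 of 9, with a median of 0.032. Of the regulators, 13 of 17 tested were higher, with a median of 0.030. All tested genes had a median of 0.0028. At E17.5 the heme synthesis genes ranged from -0.23 for Alad, an early enzyme of the pathway, to 0.19 for Fech, the enzyme that inserts iron into heme, and the regulators from -0.20 for Tal1, a factor of early blood cells, to 0.24 for Bcl11a. At E12, 7 of 8 heme synthesis genes were higher in the mutant with a median of 0.087, 6 of 9 other red cell genes were higher with a median of 0.046, 4 of 5 membrane genes were lower with a median of -0.12, and 12 of 18 regulators were lower with a median of -0.068, against 0.0086 for all tested genes. Between E12.5 and E12.0, 8 of 8 heme synthesis genes were higher at E12.5 with a median of 0.23, 7 of 9 other red cell genes were higher with a median of 0.55, 3 of 5 membrane genes were lower with a median of -0.011, and 12 of 18 regulators were higher with a median of 0.095, against 0.37 for all tested genes.

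Blood enters the tissue with its vessels and with other blood cells, so markers of those were read beside the globins. The 12 endothelial markers summed to 49.6 FPKM in the mutant and 50.6 in the wild-type library at E12.0, to 82.0 and 85.2 FPKM at E12.5, and at E17.5 to 156 and 139 FPKM in mutant libraries, against 143 and 128 FPKM in wild-type libraries. The 15 white blood cell and microglia markers summed to 16.3 and 11.04 FPKM at E12.0, to 25.5 and 25.01 FPKM at E12.5, and at E17.5 to 85.2 and 70.4 FPKM in mutant libraries, against 79.3 and 69.7 FPKM in wild-type libraries. Their neutrophil members S100a8 and S100a9 were at 0 in 3 of the 4 E12 libraries. The 10 platelet markers listed in both tables summed to 5.51 to 7.94 FPKM at E12, and at E17.5 to 14.5 and 10.6 FPKM in mutant libraries, against 12.7 and 8.90 FPKM in wild-type libraries. Pf4 made up most of this sum in every E17.5 library, at 5.97 to 11.4 FPKM, against 1.94 to 2.79 FPKM at E12. The platelet sum at E17.5 thus speaks mainly for 1 gene. At E17.5 the endothelial, white blood cell and platelet sums, like the globin sum, were higher in the first than in the second library of each genotype. For platelet markers in the mutant this order rested on Pf4. The share of all genes with this order was not computed. Their part in the globin levels was not tested.

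Likeness to the globins over the 8 libraries was described by Pearson's r of log2(FPKM + 1), centred within each table, among 11341 genes. The summed adult globins were most like Zcchc24 (r = 0.99), Myd88 (r = 0.98) and Sidt2 (r = 0.97), with the red cell gene Fam46c at 0.95 as the fourteenth name on the list, and Lin28b had an r of -0.91. The summed embryonic globins were most like Trmt2b (r = 0.97), Smc2 (r = 0.89) and Ganc (r = 0.89), while Alas2 was at 0.69 and Slc4a1 at 0.43. All points share libraries, genotype and stage, and for the embryonic sum the spread lay mostly between the E17.5 libraries, where levels were low.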

How the data were processed

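The authors deposited FPKM per gene locus for E12 (23737 rows) and per RefSeq transcript for E17.5 (32952 rows). Reads were aligned with TopHat to mm9 and summarised with Cufflinks, per the submitters' processing notes, without versions. Libraries were paired-end, 100 cycles, on a HiSeq 2500, per the labels' protocols. Rows were summed by symbol. At E12, 212 symbols joined several names, and 8 rows with no gene name (0.0285% to 0.0360% of FPKM) were left out. Because the tables were made separately, levels were compared within a table and shares or ratios within a library. Small RNA genes took 9.77% to 24.5% of FPKM, and 11572 to 13219 genes reached 1 FPKM.

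All symbols with a mean of at least 1 FPKM were tested with limma 3.58.1 (R 4.3.3, trend) on log2(FPKM + 1), two-sided, with Benjamini-Hochberg adjustment and a threshold of 0.05; the pseudocount understates changes of low genes. FPKM allows no count model. Shares were tested by exact permutation (Python 3.11.15, scipy 1.17.1). At E12 the limma fit has 1 residual degree of freedom. Depth was estimated from the steps of low FPKM values, with a fragment length of 170 nt: 40.8 and 30.2 M fragments in mutant and 34.6 and 43.5 M in wild-type E17.5 libraries, where 78.8% to 80.6% of low values were within 0.1 of a whole fragment. At E12 it was 30.6% to 41.0%, so depth is unknown there.

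The rule for named genes took all 7 globins, other globins by range, and from each marker list the largest changes plus Alas2, Slc4a1, Klf1 and Gata1, except 1 gene that is not reported here; Hemgn, Bcl11a and Lin28b were picked after their values were seen. Members and lists were chosen with earlier results of these data known. Alternatives changed the pseudocount, filter, scaling, row joining, blocks and libraries; leaving out small RNA genes was added after the data were seen. Several lists hold genes that brain cells also express. Promoters came from RefSeq (GRCm38.p6), a build other than that of the files.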

Additional observations from a re-analysis of the deposited data

Results flagged for a closer look

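The genotype difference lay on opposite sides at the 2 early stages for 3 quantities, and with 1 library per genotype and stage this was not tested. The log2 difference of Hba-x, mutant over wild-type, was -0.41 in the E12.0 pair and 0.12 in the E12.5 pair. For Hbb-y it was 0.077 in the E12.0 pair and -0.19 in the E12.5 pair. The embryonic alpha share was -0.201 percentage points apart at E12.0, mutant minus wild-type, and 6.41 points apart at E12.5.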

How the results depend on the processing

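The stage differences of the embryonic shares kept their sign in all alternatives run, as did that of the beta share between genotypes; the alpha share between genotypes was between -0.0463 and 2.16 points when 1 library was left out. Between E12.5 and E12.0, 3 globin units passed with pseudocount 0.1, with small RNA genes left out and without the genotype block. In these 3 fits 2557 of 11952, 4112 of 11849 and 4502 of 11952 genes passed. Under quantile normalization and scaling outside globins and small RNA, log2 E12.5 over E12.0 was -0.053 and -0.0072 for adult alpha-globin and -0.23 and -0.26 for Hbb-y, and at E17.5 that of Hba-a1, mutant over wild-type, was 0.034 and 0.0081; the cause was not tested. Leaving out 1 library at a time, the E17.5 log2 differences ran -0.32 to 0.29 for Hba-a1, -0.048 to 0.70 for Hba-a2, -0.36 to 0.72 for Hba-x, -0.090 to 0.25 for Hbb-b1, -0.66 to 0.022 for Hbb-b2 and -0.77 to 0.38 for Hbb-y. At E12 they ran -0.41 to 0.12 for Hba-x and -0.19 to 0.077 for Hbb-y. The replicate numbers at E17.5 are shared in name alone (same-numbered deviations correlated at r = 0.0280 over 13235 genes); with the number as a replicate block 0 globins were called, though Hba-a2 and Hbb-b2 came under an unadjusted p of 0.05 (limma adjusted p = 0.140 and 0.212), and 16 of all genes were called against 1 without it. The calls over all genes moved with the setting. With all libraries kept, they ran from 0 to 16 at E17.5 and 1 to 78 at E12. They ran from 0 to 4 for the difference between stages and 2 to 4502 for E12.5 over E12.0. The fits reported had 1, 4, 4 and 5. For the comparisons within E12, a fit without 1 E12 library was pooled over all 8 libraries less that one. Its residual spread came from the E17.5 libraries alone, so its calls are not set beside the others. Where 1 library remained in a group, it was taken to vary like the others. An alternative that weighted FPKM by transcript length was not run. Depth limits Hbb-bh1 at E17.5.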

Other observations

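Of the other globin genes, Hbb-bh2 was listed at 0 in all 8 libraries. The theta-type genes Hbq1a and Hbq1b were at 0 to 0.796 and 0.202 to 1.75 FPKM. Cygb, the cytoglobin of non-blood cells, was at 0.466 to 2.01 FPKM at E12 and 8.08 to 9.15 FPKM at E17.5, and at E17.5 its order did not follow that of the blood globins, being 8.44 and 8.08 FPKM in mutant libraries, against 8.82 and 9.15 FPKM in wild-type libraries. Hbb-bs had a row of its own at E17.5, at 144 and 129 FPKM in mutant libraries, against 214 and 111 FPKM in wild-type libraries.

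The 2 rows that both name Hba-a1 and Hba-a2 at E12 did not keep their proportion. The higher row took 85.1% of adult alpha FPKM in the mutant and 85.8% in the wild-type library at E12.0. In the E12.5 libraries it took 71.3% in the mutant and 71.8% in the wild-type. At E12.5 the lower row was at 152 FPKM in the mutant and 184 in the wild-type library, and at E12.0 at 57.2 and 72.2 FPKM. These copies are nearly identical, so the split between rows is uncertain.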
